A study of Oryza sativa with 12 samples.

Results

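Of the 35851 genes listed, 125 (0.349%) were read in every library of the shattering rice W517 and were at or near 0 in DZ129, which has lost seed shattering. They were chosen by their own levels, which had to reach 1 FPKM in all 6 W517 libraries and to stay at or below 0.1 FPKM in all 6 DZ129 libraries. FPKM are read numbers corrected for the length of the gene and for the size of the library. The contrast between the cultivars is therefore fixed by the choice and is given as a description, without a test. RNA was taken from the abscission zone (AZ), a short piece of the pedicel where the grain detaches, and from the nonabscission zone (NAZ), the rest of the pedicel, with 3 libraries for each of W517AZ, W517NAZ, DZ129AZ and DZ129NAZ. All pedicels were of day 10, which the labels count from flowering and the methods as DAH, and no group carried a transgene or a treatment. W517 and DZ129 are germplasm accessions that both have awns, brown grains and brown glumes, so a difference between them is a difference between 2 accessions and not an effect of shattering alone. What a replicate was, single plants or pooled pedicels, is not stated, and p-values then measure only the spread between these libraries, which may be technical.

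Rice cultivars differ in gene content as well as in gene expression. A gene can be missing from a genome, be present in a diverged form or be silent, and a short-read experiment mapped to one reference genome shows each of these as a locus with few or no reads. Families of receptor kinases and of NLR proteins, the intracellular receptors of plant immunity, are known to vary in gene number between cultivars and to lie in clusters along chromosomes, with large clusters on rice chromosome 11. In the abscission zone a layer of small cells forms between grain and pedicel, and its cell walls are broken down when the grain is shed.

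The tissue labels were checked with 6 genes of abscission zone development. SH4, the Myb3-domain regulator of the layer, averaged 0.941 FPKM in W517AZ, 0.174 in W517NAZ and 0.0780 in DZ129AZ. SHAT1, an AP2 factor needed for the layer, averaged 13.3 FPKM in W517AZ and 7.18 in W517NAZ. In W517, 5 of the 6 genes were higher in every AZ library than in every NAZ library. The exception was OSH15 (LOC_Os07g03770), the most abundant, with 74.8 FPKM in W517AZ and 132.5 in W517NAZ, and it made the sum of the 6 genes lower in W517AZ (149.9 to 160.6 FPKM) than in W517NAZ (171.8 to 180.4). Each library held 17118433 to 20892504 reads on genes. Genes of the starchy endosperm of the grain were also read. The 9 of 10 listed endosperm markers that were in the table summed to 14651 to 14859 FPKM in W517AZ against 1619 to 1907 in W517NAZ. In DZ129 the sums were 1670 to 1964 FPKM in the AZ and 439.3 to 491.6 in the NAZ, and none was at 0 in any group. In whole pieces of tissue, fewer cells of a type and less RNA per cell cannot be told apart.

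The genes read only in W517 were of low to moderate level. Their mean over the 6 W517 libraries ran from 1.31 to 41.5 FPKM, with a median of 5.76 and quartiles of 3.11 and 11. The 16897 genes with at least 1 FPKM in every W517 library had a median of 14.4 FPKM, and the 125 genes are 0.740% of them. A mean above 10 FPKM was found in 35 genes, above 20 in 9 and above 40 in 1, while 17 lay below 2. By tissue, the median level was 4.62 FPKM in W517AZ and 6.07 in W517NAZ. The W517 libraries of one tissue lay close together, with a median coefficient of variation of 9.70% in W517AZ and 8.77% in W517NAZ, although the widest reached 60.4% in W517AZ. The genes were shorter than others, with a median length of 1503 bp against 1828 bp over all genes read in W517.

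The deposited FPKM could be written back as whole reads, which shows how firm these levels are. A gene had 6 to 2354 reads in a W517 library, with a median of 143.5. Summed over the 125 genes, a W517AZ library held 27073 to 29351 reads and a W517NAZ library 37529 to 38781, against 55 to 83 reads in a DZ129 library. In DZ129, 45 genes (36%) had 0 reads in all 6 libraries. By counting error alone, a 0 in 1 library allows up to about 3 reads there. For 0 reads in all 6 libraries, the limit is about 3 over the 6 together. A further 40 had 1 to 3 reads over the 6 libraries together, and 14 had more than 10. The highest number for a gene in 1 DZ129 library was 7 reads, and only 8 genes had a read in every one of the DZ129 libraries.

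The 45 genes without a read in DZ129 were shorter and lower than the 80 with at least 1. Their median length was 837 bp against 2148 bp, and their median level in W517 was 3.94 against 6.88 FPKM. The limit of 0.1 FPKM forces part of the difference in length. In a gene of 519 bp, 1 read in a DZ129 library already came to 0.0975 FPKM, so clearly shorter genes could enter only with 0 reads. No test was made of this split, since it uses the values that chose the genes. An FPKM of 0 says only that no read was assigned to the locus.

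The highest mean belonged to LOC_Os10g24000, a gene of 354 bp without an annotation in the sources used here. It was read at 23.5, 23.6 and 22.9 FPKM in W517AZ and at 68.2, 54.4 and 56.5 in W517NAZ, with 0 reads in all 6 DZ129 libraries. LOC_Os01g41800 followed with 29.0, 31 and 28.3 FPKM in W517AZ and 46.9, 51.5 and 51.4 in W517NAZ. In both genes all NAZ libraries lay above all AZ libraries. LOC_Os01g23070, described as an expressed protein without a named function, was read at 17.7, 18.4 and 17.9 FPKM in W517AZ and at 58.0, 61.6 and 59.9 in W517NAZ. It also sat nearest the limit of the choice, since its highest DZ129 library, with 4 reads, reached 0.0994 FPKM. LOC_Os04g52210 had the opposite order, with 42.2, 40.3 and 41.8 FPKM in W517AZ and 22, 20.8 and 21.2 in W517NAZ. LOC_Os06g43150 was nearly level, at 21.9, 26.2 and 26.8 FPKM in W517AZ and 30.3, 27.7 and 29.0 in W517NAZ. The short gene LOC_Os08g29750, of 267 bp, varied most among these, with 8.86, 18.7 and 19.7 FPKM in W517AZ and 24.1, 30.8 and 23.6 in W517NAZ.

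**Figure D1:**
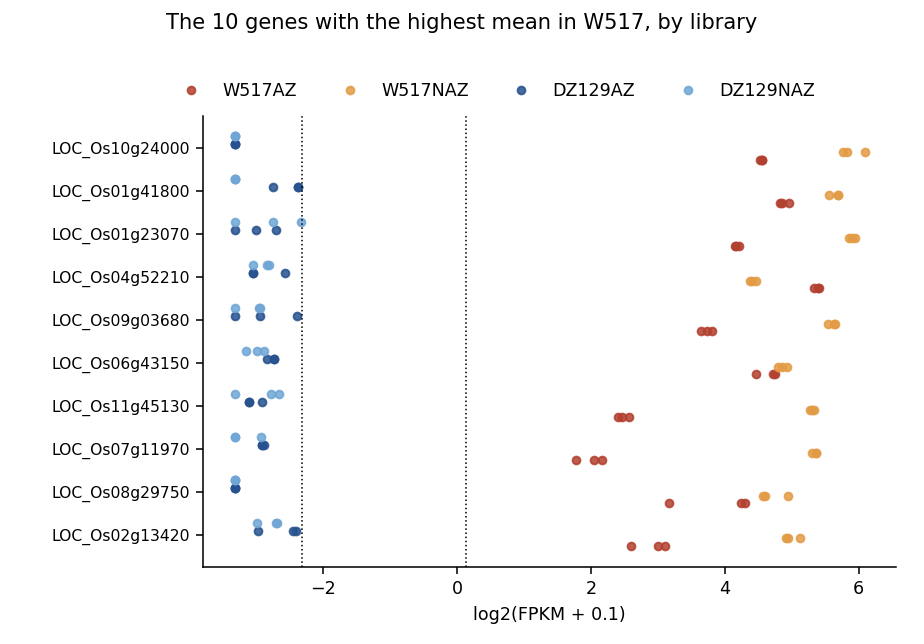
Levels of the 10 genes with the highest mean over the W517 libraries, as log2(FPKM + 0.1), with 1 point per library coloured by group and dotted lines at 0.1 and 1 FPKM, the limits of the choice. All W517 points lie to the right of the line at 1 FPKM and all DZ129 points at or to the left of the line at 0.1 FPKM, and in LOC_Os04g52210 the W517AZ points lie to the right of the W517NAZ points.

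The limits cut through a continuous range. LOC_Os05g33090 was just inside, with a highest DZ129 value of 0.0975 FPKM. Just outside lay LOC_Os10g05250, at 0.101 FPKM in its highest DZ129 library but 5.35 in W517AZ and 40.9 in W517NAZ on average, and LOC_Os01g54980, also at 0.101. At the lower limit for W517, LOC_Os08g12950 and LOC_Os06g24990 each entered with a lowest library of 1.02 FPKM, whereas LOC_Os04g25140 (0.969) and LOC_Os07g11770 (0.967) did not. Because both tissues had to reach 1 FPKM, genes of W517 read in 1 tissue alone stayed out. With at most 0.1 FPKM in every DZ129 library, 57 genes reached 1 FPKM in all W517AZ libraries but not in all W517NAZ libraries, and 61 the reverse.

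The same rule with the cultivars exchanged gave a list 4.22 times as long. It held 527 genes read only in DZ129, or 2.92% of the 18030 genes with at least 1 FPKM in every DZ129 library. Their median level of 5.58 FPKM was like that of the genes read only in W517, and 168 of them (31.9%) were listed at 0 in all W517 libraries. Both cultivars were mapped to the same reference genome, and genes that the reference does not hold are not listed for either.

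The choice did not compare the tissues of W517, although its floor of 1 FPKM in both leaves out genes nearly silent in 1 tissue and so limits how far a low gene can differ. The tissue difference was tested with limma over the 6 W517 libraries. All 125 genes passed the filter, which their choice ensured. A differentially expressed gene (DEG) had a Benjamini-Hochberg adjusted p below 0.05 and a change of more than 2-fold. Fold changes were taken on log2(FPKM + 0.1). Of the 125 genes, 28 (22.4%) were DEGs, of which 22 (17.6%) were higher in W517NAZ and 6 (4.8%) were lower. Over all 21485 genes tested, 35.2% were DEGs, 13.3% higher and 21.9% lower in W517NAZ. Over the 16897 genes with at least 1 FPKM in every W517 library, which share the floor on level in both tissues, the shares were 25.3%, 12.8% and 12.5%. Higher calls thus made up 78.6% of the calls among the genes read only in W517 and 50.7% among all genes with that floor. With quantile normalization the split of the 125 genes became 30 higher and 3 lower, or 90.9%. That of all genes tested moved as well, from 2858 higher and 4708 lower to 3706 and 3572. The share among genes with that floor was not computed under this setting. No test was made of the difference between the list and other genes.

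Most of the 125 genes differed little between the tissues. The log2 fold change of W517NAZ vs. W517AZ had a median of 0.05 with quartiles of -0.25 and 0.57, and 77 genes lay within 0.5 of 0. This last count was not made over other genes. The medians were -0.13 over all genes tested and -0.06 over the genes with the same floor. Adjusted p was below 0.05 in 71 genes (56.8%), against 75.1% of all genes tested and 73.6% of those with the same floor, and 43 of the 71 changed by 2-fold or less. By direction, 43 of the 125 genes (34.4%) passed this limit with a higher level in W517NAZ, against 30.7% of all genes tested and 34.0% of those with the floor. A lower level was found in 28 of the 125 (22.4%), against 44.5% and 39.6%. The NAZ and AZ libraries did not overlap in 78 of the 125 genes. This was a smaller share than over all genes tested, 16834 of 21485 (78.4%). It was also smaller than over those with the floor, 13038 of 16897 (77.2%). The changes reached far in a few genes. A fold change of more than 4 was found in 12 of the 28 DEGs, 10 of them higher in W517NAZ. No such count was made over all genes tested, so these numbers do not set the list apart from other genes.

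**Figure D2:**
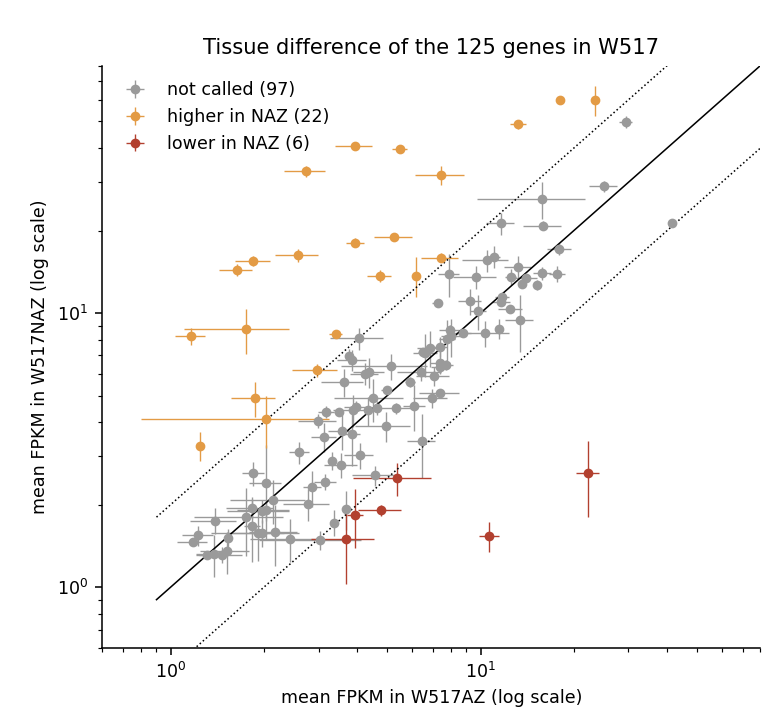
Mean FPKM in W517NAZ against mean FPKM in W517AZ for the 125 genes, on log axes, with bars of 1 SD over 3 libraries, a solid line of equality and dotted lines at 2-fold. The 22 genes called higher in W517NAZ lie above the upper dotted line, the 6 called lower lie below the lower one, and most others lie between.

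A description was found for 18 of the 125 genes, in the supplementary gene table of the study. That table lists genes chosen by the study from these same libraries. They were called between the tissues of W517 and between W517AZ and DZ129AZ, but not between the tissues of DZ129. The copy used here ended on chromosome 10, with 33 of the 125 genes beyond its end. The 18 genes, of which 16 were DEGs, therefore stand for genes chosen in this way and not for the list. Their descriptions named 3 kinases, 2 transposon proteins, 1 NLR protein, 1 cytochrome P450 and 1 storage protein, and 5 named no function. Of the other 309 genes with that floor and a description, 25 named a kinase, 1 an NLR protein and 1 a transposon. A cytochrome P450 was named in 6, a storage protein in 8 and no function in 81. Zinc finger proteins or transcription factors (12), ribosomal proteins (4) and F-box proteins (3) were named among these but not among the 18. The best hits below are names of the most similar protein in that table, from Arabidopsis unless another source is given.

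The 3 genes described as kinases, all receptor-like kinases, which carry signals from outside the cell, were DEGs, and 1 more gene had a receptor kinase as its best hit only. LOC_Os05g33160 is described as an inactive receptor kinase, with the best hit BIR2, which in Arabidopsis holds back an immune co-receptor. Its level was 2.56, 2.44 and 3.22 FPKM in W517AZ and 32.9, 34.5 and 31.4 in W517NAZ, with 2 reads in all of DZ129. The 2 tissues were far apart, and the 11.7-fold rise was the highest of the 125 genes (log2 fold change 3.55, SE 0.10, adjusted p = 8.7e-10). LOC_Os02g13420, a leucine-rich repeat receptor kinase, has the best hit HSL1, a relative of HAESA, the receptor of floral organ abscission in Arabidopsis. Its FPKM were 5.96, 8.54 and 7.90 in W517AZ and 30.1, 34.7 and 30.7 in W517NAZ. The rise was 4.26-fold (log2 fold change 2.09, SE 0.12, adjusted p = 1.2e-07), so the gene was lower in the abscission zone than in the rest of the pedicel.

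LOC_Os01g41750, described only as an expressed protein, has as its best hit EMS1, a receptor kinase of anther development in Arabidopsis. It was read at 3.82, 4.26 and 3.76 FPKM in W517AZ and at 18.7, 17.4 and 18.1 in W517NAZ. It rose 4.5-fold (log2 fold change 2.17, SE 0.08, adjusted p = 3.8e-09). LOC_Os07g03930, a lectin-like receptor kinase, had the lowest level of these genes, with 1.27, 1.23 and 1.23 FPKM in W517AZ, 3.73, 3.17 and 2.95 in W517NAZ and 0 reads in DZ129. Its log2 fold change was 1.32 (SE 0.15, adjusted p = 2e-05), and the call was lost with a pseudocount of 1 FPKM. In these 4 genes the W517NAZ libraries lay above the W517AZ libraries without overlap. LOC_Os07g03930 was named after its values were seen.

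LOC_Os04g11780, described as resistance protein LR10 with the best hit RPP8L4, belongs to the NLR immune receptors. It was read at 2.79, 2.11 and 2.84 FPKM in W517AZ and at 16.7, 16.8 and 15.3 in W517NAZ, and it had 0 reads in DZ129. The rise was 6.14-fold (log2 fold change 2.62, SE 0.12, adjusted p = 2e-08). The gene was named after its values were seen.

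The descriptions also named 3 enzymes that modify small molecules, of which 2 were DEGs. LOC_Os07g11970 is described as a cytochrome P450, with the best hit CYP71Z7, one of the rice oxygenases of the diterpenoid family of defence compounds. It was read at 4.04, 3.33 and 4.39 FPKM in W517AZ and at 41.1, 39.4 and 41.1 in W517NAZ. The change was 10.2-fold (log2 fold change 3.35, SE 0.09, adjusted p = 6.8e-10), second only to the inactive receptor kinase. LOC_Os04g12900, a glucosyltransferase with the best hit UGT74E2, an enzyme that attaches glucose to an auxin in Arabidopsis, was read at 10.6, 11.2 and 13 FPKM in W517AZ and at 23.4, 19.6 and 20.8 in W517NAZ. Its libraries did not overlap, but its log2 fold change of 0.87 (SE 0.09, adjusted p = 1e-05) stayed below the limit for a DEG. LOC_Os06g08580, a transferase whose best hit is HCT of the lignin pathway, was read at 3.30, 2.40 and 3.17 FPKM in W517AZ and at 5.77, 6.37 and 6.39 in W517NAZ. Its log2 fold change was 1.05 (SE 0.14, adjusted p = 5.4e-05), close to the limit, and the call was lost without W517AZ replicate 2 and with pseudocounts of 0.5 and 1 FPKM. This gene, too, was named after its values were seen.

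LOC_Os06g24990 is described as a xylanase inhibitor, a class of proteins that block fungal enzymes which degrade cell walls. The FPKM were 2.25, 1.02 and 2.0 in W517AZ and 6.86, 9.98 and 9.30 in W517NAZ, with 0 reads in DZ129. The rise of 4.93-fold had a wider error than most (log2 fold change 2.30, SE 0.26, adjusted p = 2e-05). LOC_Os09g03680, described as an ankyrin, a repeat protein that binds other proteins, was among the most abundant at 14.0, 12.5 and 13.3 FPKM in W517AZ and 50.2, 46.7 and 49.6 in W517NAZ. Its change was 3.67-fold (log2 fold change 1.88, SE 0.06, adjusted p = 1e-09). LOC_Os01g23070, given above, rose 3.31-fold (log2 fold change 1.73, SE 0.04, adjusted p = 3.4e-10).

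LOC_Os08g12950 carries the description of a Pong transposon protein and the best hit GSTT3, a glutathione transferase, and the sources used here do not settle which of these it is. It was read at 1.26, 1.21 and 1.02 FPKM in W517AZ and at 7.87, 7.93 and 8.91 in W517NAZ, with 0 reads in DZ129. The rise was 6.63-fold (log2 fold change 2.73, SE 0.13, adjusted p = 2.8e-08). LOC_Os08g07380, described as a retrotransposon protein but with the best hit At1g50180, had log2 fold change 1.27 (SE 0.09, adjusted p = 6e-07). LOC_Os08g40410, described as a translation factor but with the best hit ACR5, had 1.34 (SE 0.16, adjusted p = 3e-05). What these 2 genes encode is not settled here either. Both were named after their values were seen.

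Of the 28 DEGs, 12 had no description. Among them LOC_Os02g42150 was read at 1.81, 1.67 and 1.41 FPKM in W517AZ and at 15.2, 14.4 and 13.7 in W517NAZ (log2 fold change 3.07, SE 0.11, adjusted p = 4.5e-09). In DZ129 its few reads fell mainly in DZ129NAZ, with 6, 1 and 6 reads against 0, 0 and 1 in DZ129AZ. LOC_Os11g38580 was similar, with 1.64, 1.80 and 2.11 FPKM in W517AZ and 16.2, 15.1 and 15.2 in W517NAZ (log2 fold change 3.01, SE 0.11, adjusted p = 4e-09). LOC_Os11g45130 reached higher levels, 5.22, 5.40 and 5.81 FPKM in W517AZ and 40.4, 39.6 and 38.7 in W517NAZ (log2 fold change 2.83, SE 0.06, adjusted p = 1.4e-10). All 3 genes rose more than 7-fold with no overlap of the libraries. LOC_Os10g24000, the gene with the highest mean, rose 2.54-fold (log2 fold change 1.34, SE 0.08, adjusted p = 9.5e-08).

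The 6 genes lower in W517NAZ were led by a storage protein. LOC_Os06g31060 is PROLM23, a prolamin, one of the storage proteins of the rice endosperm. It was read at 23.9, 20.1 and 22.7 FPKM in W517AZ and at 2.59, 1.81 and 3.41 in W517NAZ, and DZ129 gave 1 read in each AZ library and none in NAZ. The level was 8.50-fold lower in W517NAZ (log2 fold change -3.09, SE 0.19, adjusted p = 1.6e-07). The endosperm markers moved the same way, 8 of 9 being lower in W517NAZ without overlap of the libraries and the summed level falling from at least 14651 to at most 1907 FPKM, and their part in this result was not tested. Other prolamins were close to joining the list. PROLM22 (LOC_Os07g11920), itself one of those markers, averaged 113.6 FPKM in W517AZ and 12.4 in W517NAZ and was kept out only by a highest DZ129 value of 0.240 FPKM. The best hit of PROLM23 is LOC_Os12g16890, which averaged 3695 FPKM in W517AZ and 550.2 in W517NAZ and was read at 118.4 to 393.4 FPKM in DZ129, and reads may have been shared between such similar genes.

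LOC_Os12g09720, without a description, was read at 11.2, 9.73 and 11 FPKM in W517AZ and at 1.73, 1.36 and 1.52 in W517NAZ, and a single read was found in DZ129. It was 6.59-fold lower in W517NAZ (log2 fold change -2.72, SE 0.12, adjusted p = 1.9e-08). The other genes lower in W517NAZ were of low level and changed less, and all of them had 0 reads in DZ129. LOC_Os11g07640 had a log2 fold change of -1.27 (SE 0.15, adjusted p = 2.3e-05), with 5.17, 5.27 and 3.91 FPKM in W517AZ and 1.92, 1.82 and 2.0 in W517NAZ. LOC_Os04g02470 had a log2 fold change of -1.26 (SE 0.23, adjusted p = 0.00067), with 3.09, 4.64 and 3.29 FPKM in W517AZ and 1.11, 1.37 and 2.02 in W517NAZ. LOC_Os10g31360 had a log2 fold change of -1.09 (SE 0.18, adjusted p = 0.00035), with 3.75, 3.88 and 4.21 FPKM in W517AZ and 2.13, 1.32 and 2.05 in W517NAZ. These 3 calls were lost with a pseudocount of 1 FPKM and with quantile normalization. That of LOC_Os10g31360 was also lost with a pseudocount of 0.5, with median-ratio scaling and without W517NAZ replicate 2. LOC_Os03g02620, named after its values were seen, was the last of the 6 (log2 fold change -1.05, SE 0.19, adjusted p = 0.00062), and its call was lost without W517AZ replicate 1 or W517NAZ replicate 3, with pseudocounts of 0.5 and 1 FPKM and with median-ratio scaling and quantile normalization.

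Several of the highest genes were not DEGs. LOC_Os04g52210 was lower in W517NAZ by less than 2-fold (log2 fold change -0.96, SE 0.05, adjusted p = 2.6e-08) and passed the limit, at -1.01, with quantile normalization. LOC_Os01g41800 rose 1.69-fold (log2 fold change 0.76, SE 0.05, adjusted p = 5.4e-07). LOC_Os08g29750 had a log2 fold change of 0.80 (SE 0.26, adjusted p = 0.017), which was 1.0 and past the limit without W517AZ replicate 3 but 0.43 without W517AZ replicate 1. Its adjusted p was 0.059 without W517NAZ replicate 2 and 0.15 without the filter on low values. LOC_Os06g43150 differed by 0.22 (SE 0.08, adjusted p = 0.024), and its libraries did not overlap. This small change fell to 0.13 without W517AZ replicate 1, and its adjusted p, which ranged from 0.0020 to 0.16 over the alternatives, was above 0.05 in the model of the 4 groups (0.16), without the filter (0.12), with quantile normalization (0.096) and without W517NAZ replicate 1 (0.083) or 3 (0.056).

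The calls were also counted apart for the 45 genes without a read in DZ129 and for the other 80. Of the former 11 (24.4%) were DEGs, 7 higher and 4 lower in W517NAZ, and of the latter 17 (21.3%), 15 higher and 2 lower. Over all genes tested the share of DEGs was 35.2%. Over the genes with at least 1 FPKM in every W517 library it was 25.3%, with 12.8% higher and 12.5% lower. Neither part of the list had a share of DEGs above these. The split uses the values that chose the genes, so it was not tested and the directions are given as counts only. The NAZ and AZ libraries of the 28 DEGs did not overlap except in ChrUn.fgenesh.gene.38, a gene of 291 bp with 1.63, 3.40 and 1.05 FPKM in W517AZ and 5.02, 4.01 and 3.28 in W517NAZ (log2 fold change 1.12, SE 0.35, adjusted p = 0.014). This gene had 6 to 25 reads in a W517 library, and the call was lost when W517AZ replicate 3 or W517NAZ replicate 1 was left out, with pseudocounts of 0.5 and 1 FPKM and without the filter on low values.

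The files give locus identifiers of MSU-RGAP 7.0 without coordinates. The identifier holds the chromosome and a locus number that rises along it, mostly in steps of about 10 from gene to gene, so that order and closeness can be read but not distance in bases. The genes read only in W517 were found on all 12 chromosomes, from 4 on chromosome 10 to 15 on chromosome 11, and 2 belonged to unplaced sequence. Measured against the genes of the same chromosome with at least 1 FPKM in every W517 library, chromosomes 11 and 12 had the highest shares, 15 of 816 (1.84%) and 14 of 915 (1.53%). The share was 1.06% on chromosome 6, with 14 genes, and 0.909% on chromosome 8, with 10. It was lowest on chromosome 1, where 9 of 2411 genes (0.373%) were on the list. The genes read only in DZ129 also had their highest share on chromosome 11, 74 of 932 (7.94%), and their next highest on chromosome 10 (4.96%). On chromosome 10 the W517 list had its smallest number, 4 of 830 genes (0.482%), but not its lowest share. No test was made of these shares.

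**Figure D3:**
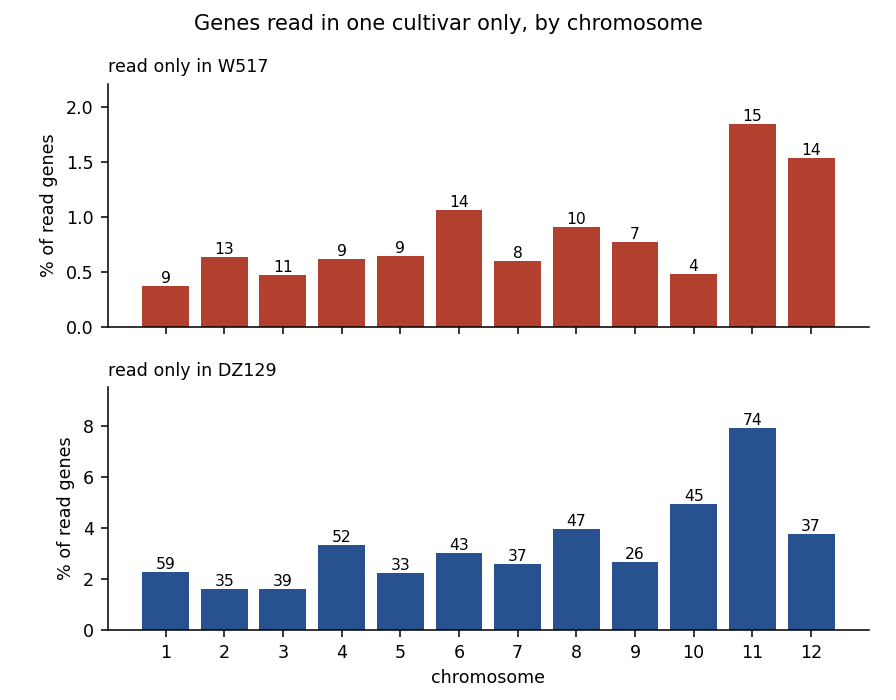
Share of the genes read in a cultivar (at least 1 FPKM in all 6 of its libraries) that were read in that cultivar only, by chromosome, as a percentage with the number of genes above each bar, for W517 at the top and DZ129 below, on different vertical scales. Chromosome 11 has the highest bar in both, at 1.84% and 7.94%.

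Within chromosomes the number of the genes differed between windows of locus numbers. Of 131 windows of 5000 locus numbers, 59 held none of the genes, 39 held 1 and 3 held 4 or more. The windows themselves held from 1 to 249 genes with at least 1 FPKM in every W517 library. No test was made of the spread, and empty windows alone do not show clustering. The fullest window, numbers 40000 to 44999 of chromosome 11, held 7 of 89 genes with that floor (7.87%). Windows with 4 genes lay at 30000 to 34999 on chromosomes 6 and 12. On chromosome 11 12 of the 15 genes had numbers above 36000, where they made up 5.53% of 217 genes. They averaged 1.35 to 22.5 FPKM in W517, and 3 of them were higher in W517NAZ. On chromosome 12 7 of the 14 genes had numbers from 27000 to 31000, a stretch of only 45 genes with that floor (15.6%). These averaged 4.61 to 18.4 FPKM, and 3 were higher in W517NAZ, LOC_Os12g29830, LOC_Os12g30070 and LOC_Os12g30320, with log2 fold changes of 1.09, 1.51 and 1.12 (adjusted p = 3.6e-06, 1.4e-07 and 7.7e-06), the first of which was not called without W517AZ replicate 3. The limits of both stretches and these names were chosen after the values were seen.

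**Figure D4:**
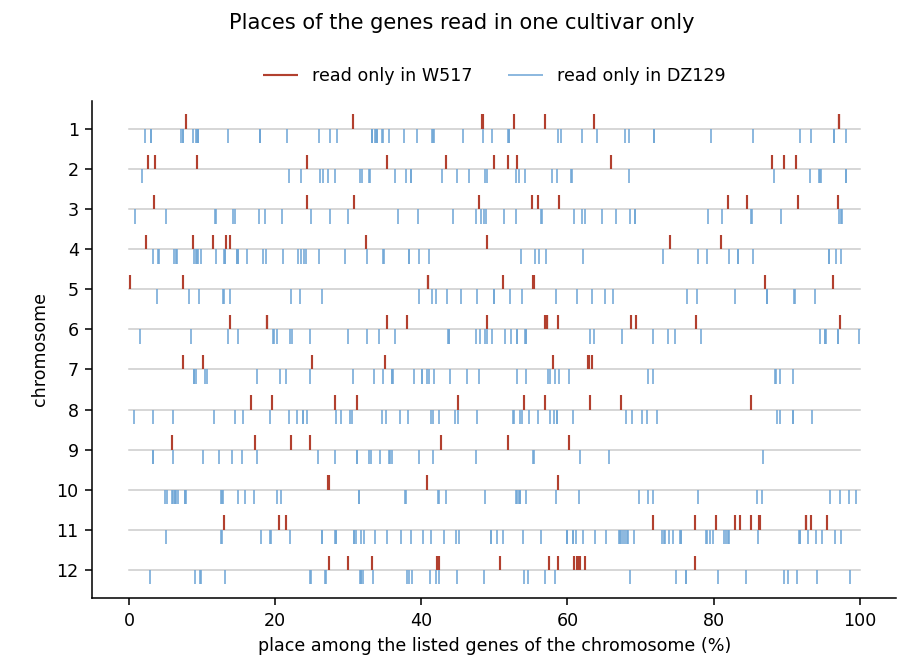
Place of each gene read only in W517 (marks above the line) and only in DZ129 (marks below), as its rank among the listed genes of its chromosome in percent, for chromosomes 1 to 12. The marks for W517 gather at the right end of chromosome 11, where 12 of its 15 genes have locus numbers above 36000.

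Most of the genes stood alone. Of the 123 with a locus number on a chromosome, 18 (14.6%) had another within 100 units, and they formed 9 pairs and no longer run. Of the other 16757 genes with that floor, 3.37% had one of the 125 genes as close. Among the next genes with that floor on either side, 22 of 245 (8.98%) were themselves on the list, and 195 (79.6%) were read at 1 FPKM or more in every DZ129 library, as were 94.5% of all genes with that floor. Both neighbours were so read in 78 of the 123 genes (63.4%). The 22 neighbours on the list could not be so read, by the choice itself, which lowers both shares. The list of genes read only in DZ129 formed 55 pairs and 24 runs of 3 or more, up to 5 genes long, but it is larger, which alone brings its members closer together.

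In 5 of the 9 pairs no listed gene lay between the members. In the other pairs 13 listed genes lay between, of which 5 had at least 1 FPKM in every DZ129 library, 3 of these in all 12 libraries, and the other 8 were below 1 FPKM in every library. The 5 genes read in DZ129 lay in 3 of the 9 pairs.

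The first pair on chromosome 1 joins LOC_Os01g41750, the EMS1-like gene, and LOC_Os01g41800. Both had higher levels in W517NAZ. Between them, LOC_Os01g41780 showed the reverse pattern of cultivars, with 1.06 to 3.0 FPKM in DZ129 and at most 0.0172 in W517, and 3 further loci were below 1 FPKM throughout. The next gene, LOC_Os01g41810, was read in both cultivars, at 44.5 FPKM in W517AZ and 225.8 in W517NAZ, and at 31.6 and 126.2 in the same tissues of DZ129. LOC_Os01g41740, just before the pair, was at 0 in every DZ129 library and averaged 0.722 FPKM in W517AZ and 0.410 in W517NAZ. From it to LOC_Os01g41770 all listed loci were near 0 in DZ129. Of these, LOC_Os01g41760 and LOC_Os01g41770 were also low in W517, at no more than 0.179 and 0.0181 FPKM. Why reads were few along these loci was not tested.

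A second pair on chromosome 1, LOC_Os01g73080 and LOC_Os01g73100, differed little between tissues. The former averaged 7.38 FPKM in W517AZ and 7.53 in W517NAZ (log2 fold change 0.03, SE 0.09, adjusted p = 0.79). The latter averaged 15.8 and 14.0 FPKM (log2 fold change -0.18, SE 0.07, adjusted p = 0.038). On chromosome 5, LOC_Os05g25080 averaged 11.7 FPKM in W517AZ and 11.4 in W517NAZ (log2 fold change -0.04, adjusted p = 0.64) and its neighbour LOC_Os05g25090 averaged 9.26 and 11 (0.25, adjusted p = 0.040). The gene before this pair, LOC_Os05g25070, was as high in DZ129 as in W517, at 22.9 and 30.4 FPKM against 21.9 and 30.2 in AZ and NAZ.

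**Figure D5:**
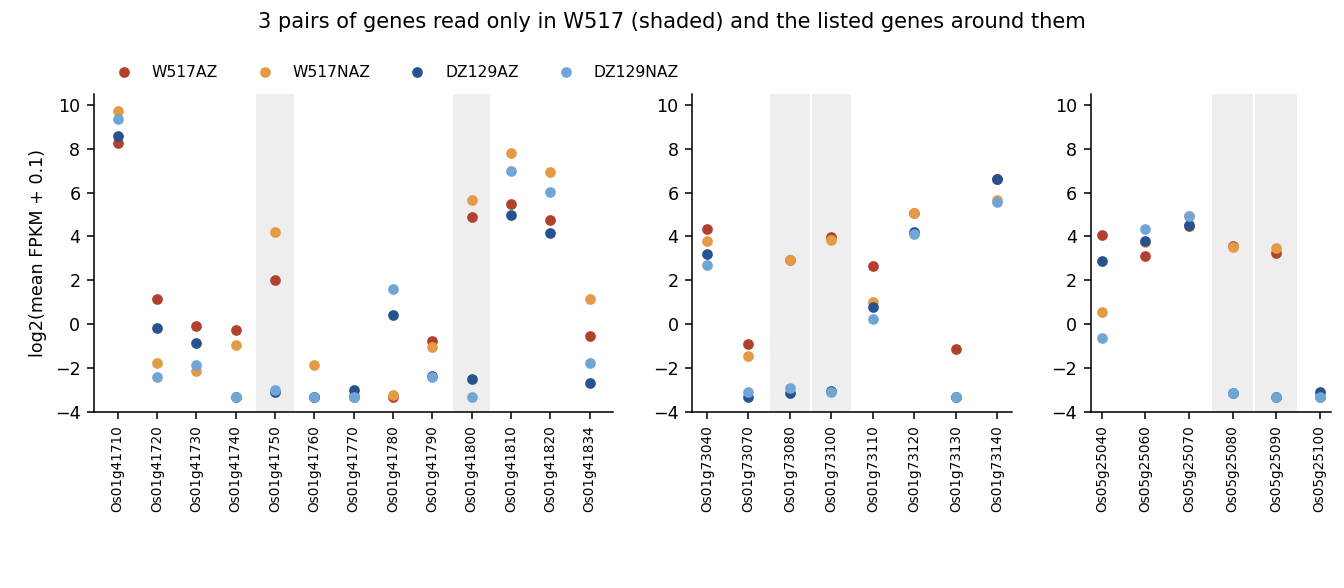
Mean level of 3 pairs of genes read only in W517 (shaded) and of the listed genes around and between them, in order of locus number, as log2(mean FPKM + 0.1) with 1 point per group of 3 libraries. Genes beside the pairs, such as LOC_Os01g41810 and LOC_Os05g25070, are read in both cultivars, and LOC_Os01g41780 between the first pair is read in DZ129 only.

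The members of a pair need not share a tissue pattern. LOC_Os05g33160, the inactive receptor kinase with the widest rise, is paired with LOC_Os05g33090, which averaged 10.4 FPKM in W517AZ and 8.45 in W517NAZ (log2 fold change -0.28, SE 0.14, adjusted p = 0.10). Between them, LOC_Os05g33110 averaged 16.6 FPKM in DZ129AZ but 1.17 in W517AZ, and LOC_Os05g33100 was read at 47.1 FPKM or more in every library of both cultivars. LOC_Os06g08580, the HCT-like transferase, rose in W517NAZ while its partner LOC_Os06g08600 averaged 1.97 and 1.58 FPKM (log2 fold change -0.27, SE 0.22, adjusted p = 0.28). On chromosome 11, LOC_Os11g42040 and LOC_Os11g42070 had fold changes of opposite sign, 0.57 and -0.37 (adjusted p = 3.8e-05 and 0.027), neither a DEG. The members of this and the following pairs were named after their values were seen.

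Of the remaining pairs, LOC_Os06g31200 and LOC_Os06g31220 lie 140 and 160 units from PROLM23 and showed no change like it. They averaged 1.31 and 14.0 FPKM in W517AZ, with log2 fold changes of -0.00 and -0.05 (adjusted p = 0.99 and 0.53). LOC_Os06g31210 between them was read in both cultivars, at 29.2 FPKM or more. LOC_Os07g35710 and LOC_Os07g35720 had log2 fold changes of 0.32 and -0.31 (adjusted p = 0.14 and 0.090) and stood beside LOC_Os07g35730, which was listed at 0 in every W517 library and averaged 0.518 FPKM in DZ129AZ and 1.39 in DZ129NAZ. In LOC_Os11g44890 and LOC_Os11g44900, neither member had a read in DZ129, and they averaged 1.38 and 4.62 FPKM in W517AZ. This was the only pair formed by the 45 genes without a read in DZ129.

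Some of the genes read only in W517 lay close to genes read only in DZ129, as did some of the other genes with that floor. Within 100 units of 20 of the 123 genes (16.3%) lay at least 1 gene read only in DZ129, against 12.5% of the other 16757 genes with that floor, and no test was made of the difference. LOC_Os09g03680, the ankyrin gene, lies 10 units from LOC_Os09g03690, which averaged 2.51 FPKM in DZ129 and reached at most 0.0532 in W517. LOC_Os12g12664, with a mean of 7.10 FPKM in W517, lies 26 units from LOC_Os12g12690, with 38.7 in DZ129. The glucosyltransferase LOC_Os04g12900 has LOC_Os04g12820 and LOC_Os04g12850 within 80 units, with 11 and 8.05 FPKM in DZ129. The 3 examples were chosen after their values were seen.

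None of the 125 genes lay within 300 locus-number units of the candidate genes of qBTS1 and qBTS3, the loci for shattering mapped in the same study. The nearest were LOC_Os01g73080, 9900 units from the first, and LOC_Os03g13690, 520 units from the second, with 6.87 FPKM in W517AZ and 7.48 in W517NAZ (log2 fold change 0.11, SE 0.12, adjusted p = 0.41).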

How the data were processed

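According to the methods of the study, stranded mRNA libraries were sequenced, and reads were trimmed with Trimmomatic, mapped to MSU-RGAP 7.0 with HISAT2, summarised with Cufflinks and counted with HTSeq. Versions were not given in the sources used here. The deposited table holds FPKM as computed by the authors, for 35851 genes and 12 libraries. Every FPKM could be written as whole reads over gene length and library total, so reads and gene lengths were recovered for depth and 1 alternative test.

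The 6 W517 libraries were compared with limma 3.58.1 (limma-trend, R 4.3.3) on log2(FPKM + 0.1), W517NAZ vs. W517AZ. A fold change on this scale understates that of low genes. DZ129 was kept out of the fit because its values near 0 would make the spread look small. The 21485 genes that reached 0.5 FPKM in 3 or more libraries were tested, with Benjamini-Hochberg adjustment over them, and 14366 were not. The procedure was tested on simulated data. A DEG had adjusted p below 0.05 and log2 fold change beyond 1. Other steps used Python 3.11.15, numpy 2.4.6 and pandas 2.3.3.

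Genes were named if they were among the 10 highest in mean, the 5 highest or 5 lowest changes among DEGs without overlap, the first 3 pairs, the 6 highest with a described function, or the nearest to a limit of the choice, and others are marked as named after their values were seen. The members and lists were chosen with earlier results of these data known. Alternatives were other pseudocounts, filters and scalings, a model of the 4 groups, a replicate block, voom on the recovered reads, other limits and leaving out each library. No sequences or coordinates were used here, and a gene table from RefSeq matched 0 of the 125 genes.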

Additional observations from a re-analysis of the deposited data

How the results depend on the processing

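The 22 calls higher in W517NAZ ranged from 19 to 30 over the 15 alternatives, and 20 of the 28 DEGs were called in every fit. The 6 lower calls became 2 with a pseudocount of 1 and 3 with quantile normalization. The median log2 fold change of the 125 genes, 0.05, became 0.17 with median-ratio scaling and 0.41 with quantile normalization, while that of all genes tested moved from -0.13 to -0.01 and 0.01, and the values without 1 library ran from 0.0103 to 0.110. The replicate block left 22 and 6 calls, and same-numbered libraries did not deviate together (r = 0.00166, 0.00418 and -0.0141). Of 405 values of the 27 named genes under the alternatives, 394 kept the side of the limit, 9 lost the call (LOC_Os11g07640, LOC_Os04g02470, LOC_Os10g31360), 2 gained it and no called value changed sign. The sign changed in 5 of the 394, all in LOC_Os01g73080 and LOC_Os05g25080, whose values lay near 0 and were not called. The list held 45 genes when DZ129 had to be at 0, 189 with a limit of 0.2 FPKM, and 126 to 138 when a library was left out of the choice. With DZ129 at 0, 2 genes had another close by, and with a distance of 200 units there was 1 run of 3. The list of genes read only in DZ129 held 168 when W517 had to be at 0. The causes were not tested. Low read numbers limit the short and low genes, and 3 libraries per group limit all tests.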
